A study of Rattus norvegicus with 60 samples.

Results

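Heat shock proteins and the J proteins that work with them were followed in the hippocampus of adult and aged rats. The members are the genes whose array symbol begins with Hspa, Hspb, Hspd, Hspe, Hsph, Hsp90 or Dnaj, each read from its brightest probe. They number 51 genes on 53 probes, of 21563 gene symbols on 22523 probes. Expression was measured on 60 Illumina bead arrays, 1 RNA sample each, from Fischer 344 x Brown Norway F1-hybrid rats, abbreviated F344BN, a strain that all groups share. The groups are aged impaired and aged intact rats of 24 months and adult rats of 12 months, and the labels do not name the test that separates impaired from intact. CA1, CA3 and the dentate gyrus have 4 arrays per group, and whole hippocampus has 9 impaired, 9 intact and 6 adult arrays. Nothing in the labels ties a sample to its own animal, so p-values measure the spread between these samples, which may be technical.

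Chaperones bind proteins that are unfolded and keep them from clumping. Small heat shock proteins such as Hspb1 hold unfolded clients without using ATP, while Hsp70 and Hsp90 fold them in cycles of ATP hydrolysis; J proteins deliver clients to Hsp70 and speed its hydrolysis, and exchange factors reset it. In stressed cells the factor Hsf1 binds heat shock elements, arrays of the letters GAA and its reverse complement, and raises transcription of many of these genes; the endoplasmic reticulum (ER) has its own stress element. In rat brain Hspb1 is known to be induced in astrocytes and in some neurons after injury.

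Of the 51 members, 42 were detected and tested in at least 1 region and 37 in all 4. A probe was tested where its detection p-value was under 0.01 on at least 4 arrays of a subregion, or 6 of whole hippocampus. This left 40 members in CA1, 41 in CA3, 38 in the dentate gyrus and 40 in whole hippocampus. Hspa4, an exchange factor, was detected on 4 CA3 arrays and stayed in, and with 3 dentate gyrus arrays it stayed out there. The 9 members tested nowhere were Dnajb12, Dnajc5g, Dnajc8, Hspa1b, Hspb2, Hspb3, Hspb7, Hspb9 and Hsph1. Hspa1b is the stress-inducible Hsp70, and its probe was detected on 0 of the 60 arrays. Hspa1a, Hspa8, Hsp90b1, Dnajb2 and Hsp90ab1 have no probe under those symbols and are not analysed here. Hspbp1, an exchange factor of Hsp70, and Hspbap1, which binds Hspb1, were taken in by the prefix and are not heat shock proteins themselves.

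The arrays of a subregion share 1 slide that holds no other region, so that slides and subregions cannot be told apart, and within such a slide each group fills a block of neighbouring array positions. The share of probes detected was between 40.64% and 47.21% on 59 arrays. The array labelled CA1 adult replicate 4 had 22.22%, and the members' age differences named in CA1 are given with and without it. Of 17 measured markers of CA1, CA3 or dentate neurons, 16 were highest in the subregion of their label. All levels below are background-corrected, quantile-normalized log2 intensities, and differences are on the same log2 scale, from limma's moderated test with Benjamini-Hochberg adjustment over all probes tested in a region. A probe's level says nothing about another probe's.

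The sequences shown are the 250 bases before the RefSeq start of the genes on which the results turn, Hspb1 and Hspb8, and of a mitochondrial and an ER chaperone whose levels are described later. They come from RefSeq on GRCr8, 5′ to 3′ on the gene's strand, and 41 of the 51 members have such an entry. Capitals mark GAANNTTC in Hspb1 and Hspb8, the overlapping GAANNTTC and TTCNNGAA in Hspe1, and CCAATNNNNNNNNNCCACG, the ER stress element, in Hspa5. Hspb1 lies at chr12:26432302-26432551 on the minus strand, Hspb8 at chr12:45837058-45837307, Hspe1 at chr9:64084077-64084326 and Hspa5 at chr3:38452766-38453015, these 3 on the plus strand.
Hspb1: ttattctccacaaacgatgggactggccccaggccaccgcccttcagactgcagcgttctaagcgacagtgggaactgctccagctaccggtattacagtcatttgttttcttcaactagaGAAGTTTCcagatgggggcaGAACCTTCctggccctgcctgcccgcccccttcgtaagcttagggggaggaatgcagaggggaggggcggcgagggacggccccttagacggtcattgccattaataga
Hspb8: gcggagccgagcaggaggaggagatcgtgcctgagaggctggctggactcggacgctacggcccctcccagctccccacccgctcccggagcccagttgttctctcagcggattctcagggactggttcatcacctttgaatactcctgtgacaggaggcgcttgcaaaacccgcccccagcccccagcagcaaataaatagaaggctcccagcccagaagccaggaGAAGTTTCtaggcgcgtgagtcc
Hspe1: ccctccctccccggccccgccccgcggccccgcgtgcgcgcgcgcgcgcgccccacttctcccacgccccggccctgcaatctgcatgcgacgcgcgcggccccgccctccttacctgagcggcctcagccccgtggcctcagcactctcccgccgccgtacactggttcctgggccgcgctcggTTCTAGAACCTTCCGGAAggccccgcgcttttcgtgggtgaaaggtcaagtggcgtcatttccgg
Hspa5: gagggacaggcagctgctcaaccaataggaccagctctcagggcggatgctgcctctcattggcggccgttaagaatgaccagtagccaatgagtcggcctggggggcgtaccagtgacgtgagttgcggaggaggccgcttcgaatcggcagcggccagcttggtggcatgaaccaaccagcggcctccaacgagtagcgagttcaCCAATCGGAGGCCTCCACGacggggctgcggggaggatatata
Hspb1 has GAAGTTTC beginning 129 bases and GAACCTTC beginning 109 bases before its start, and Hspb8 has GAAGTTTC 23 bases before its start. Searched on both strands, GAANNTTC was in 12 of the 41 member promoters (29.3%) and in 7.23% of all 33469 promoters. TTCNNGAA was in 5 members (12.2%), against 7.48% of all promoters. The longer GAANNTTCNNGAA, which contains both, was in Hspd1, Hspe1 and Hsph1 (7.3% of members, against 0.663% of all). The matched stretch of Hspd1 is the reverse complement of that marked in Hspe1, and both genes lie on chromosome 9. It may therefore be a shared site counted for both genes, also in the shares of GAANNTTC and TTCNNGAA. The ER stress element was in Dnajc3 and Hspa5 (4.9% of members, against 0.0657% of all). Of the 33469 promoters, 57.8% had their start where the gene table places it. Positions before the start, and the shares, may therefore be off for others.

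Hspb1, the small heat shock protein also called Hsp25 or Hsp27, was higher in aged than in adult whole hippocampus. Its level had its lowest, median and highest value at 7.55, 7.95 and 8.22 on the 9 impaired arrays, at 7.34, 7.94 and 8.32 on the 9 intact arrays, and at 7.07, 7.28 and 7.33 on the 6 adult arrays. All 18 aged arrays lay above all 6 adult arrays, the nearest by the narrow step between 7.34 and 7.33. The difference of aged minus adult was 0.67 ± 0.10 (SE; 1.59-fold; limma adjusted p = 0.000881). Fewer cells of a type and less RNA per cell cannot be told apart in such tissue.

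Hspb1 was the only member of 40 called in whole hippocampus, where 0.318% of all probes were called. It was also the only member whose aged and adult arrays did not overlap, against 0.174% of all probes. The 24 arrays lie on 2 slides with every group on both. Within the first slide the difference was 0.67 and within the second 0.68, the same size as over both, and with fewer arrays neither was called (limma adjusted p = 0.376 and 0.336). Intact minus adult was 0.65 (limma adjusted p = 0.00725) and impaired minus adult 0.70 (limma adjusted p = 0.00281); these share the adult arrays. Hspb1 was the only member called in either, against 0.241% and 0.26% of all probes.

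**Figure D1:**
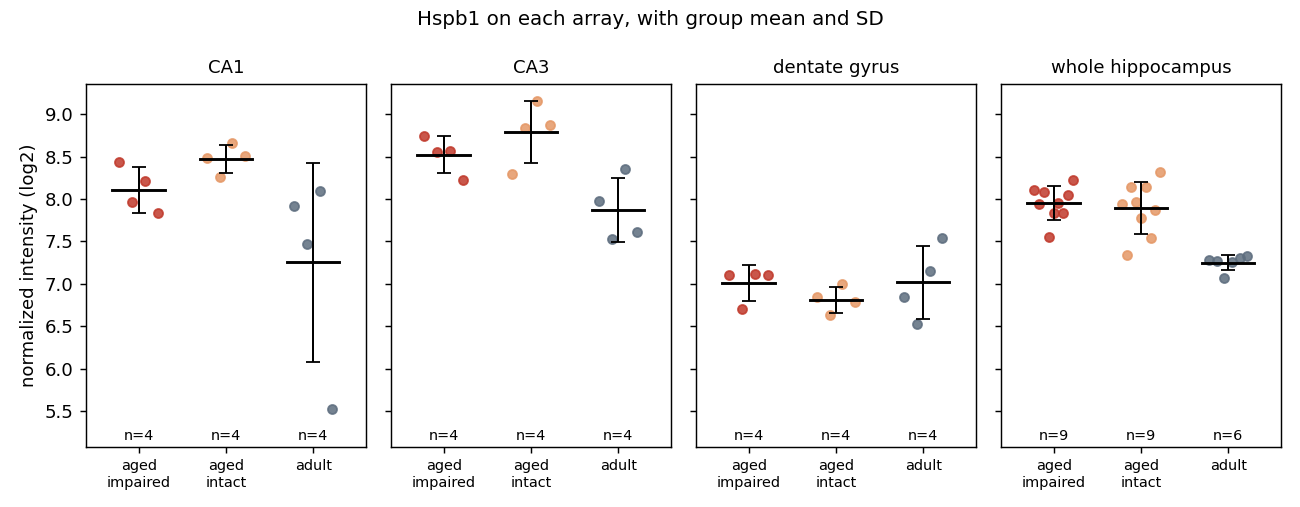
Normalized log2 intensity of Hspb1 on each of the 60 arrays (points), with group mean (thick line) and SD (bars), for aged impaired, aged intact and adult rats in 4 regions. In whole hippocampus the adult arrays sit between 7.07 and 7.33, below all aged arrays; in CA1 adult replicate 4 sits alone at 5.53.

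In CA3 Hspb1 was at 8.74, 8.56, 8.57 and 8.22 on the impaired arrays, at 8.29, 8.84, 9.16 and 8.87 on the intact arrays, and at 7.98, 7.53, 8.35 and 7.61 on the adult arrays. Adult replicate 3, at 8.35, lay above the lowest impaired and the lowest intact array, so the groups overlap. The difference of aged minus adult was 0.79 ± 0.17 (SE; 1.73-fold; limma adjusted p = 0.045). This call sat close to the threshold and was lost when any of 9 of the 12 arrays was left out, with differences between 0.68 and 0.82 and adjusted p of 0.0663 to 0.172. It was kept without adult replicate 3, at 0.95, and without intact replicate 1 or impaired replicate 4. Intact minus adult was 0.92 (limma adjusted p = 0.0368). That call was lost when any of 8 of the 12 arrays was left out, with limma adjusted p up to 0.121. Impaired minus adult was not called, but was also above 0, between 0.54 and 0.81 with each array left out in turn.

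In CA1 the Hspb1 levels were 8.44, 7.96, 8.21 and 7.83 on the impaired arrays, 8.48, 8.26, 8.66 and 8.51 on the intact arrays, and 7.92, 7.47, 8.09 and 5.53 on the adult arrays. The value of 5.53 belongs to adult replicate 4, the array with few detected probes, and Hspb1 was not detected there. The groups overlap also without it, since adult replicate 3, at 8.09, lay above impaired replicates 2 and 4. With all 12 arrays aged minus adult was 1.04 ± 0.39 (SE; limma adjusted p = 0.63), and without that array it was 0.47 ± 0.15 (SE; limma adjusted p = 0.178), so it was not called either way. With any other array left out the difference was between 0.99 and 1.32.

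In the dentate gyrus Hspb1 was at 7.11, 6.70, 7.12 and 7.11 on the impaired arrays, at 6.84, 6.63, 7.00 and 6.79 on the intact arrays, and at 6.85, 6.53, 7.15 and 7.54 on the adult arrays. The 3 groups overlap, and the adult arrays hold both the lowest and the highest value. Aged minus adult was -0.11 ± 0.17 (SE; limma adjusted p = 1.000), and it turned to 0.07 without adult replicate 4.

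Whether the age difference of Hspb1 differs between the 3 subregions was tested in 1 model of their 36 arrays. The dentate gyrus difference minus that of CA3 was -0.90 ± 0.40, and minus that of CA1 -1.15 ± 0.40 (SE). The F test gave an unadjusted p of 0.0172 and an adjusted p of 0.661 in limma, so a difference between subregions was not called. Without CA1 adult replicate 4 these were 0.0028 and 0.405, and the dentate gyrus difference minus that of CA1 was -0.58 ± 0.25 (SE), smaller in size than that against CA3, which stayed at -0.90. Of the 42 members 0 were called, against 0.00939% of all probes; 5 members had an unadjusted p under 0.05 (Dnajc1, Hspb1, Hspa9, Hsp90aa1 and Dnajc17), against 6.96% of all probes. Without that array 5 members again had one, against 8.01% of all probes, but of the first 5 it was Hspb1 alone, beside Hspb8, Hspa4l, Dnajb4 and Dnajc10.

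Hspb8, a small heat shock protein that works with the cochaperone Bag3 in clearing damaged proteins, was the second member called in CA3. It was at 8.16, 8.09, 8.14 and 8.17 on the impaired arrays, at 8.15, 8.32, 8.37 and 8.33 on the intact arrays, and at 7.76, 7.74, 8.04 and 7.81 on the adult arrays. All 8 aged arrays lay above all 4 adult arrays. The difference of aged minus adult was 0.38 ± 0.07 (SE; 1.30-fold; limma adjusted p = 0.0191), and that of intact minus adult 0.46 (limma adjusted p = 0.0138). The first was lost without adult replicate 1, 2 or 4, at 0.35, 0.34 and 0.37 with adjusted p of 0.0727, 0.085 and 0.077. The second was lost without adult replicate 4 or intact replicate 3, at 0.45 and 0.43 with limma adjusted p of 0.0511 and 0.0571.

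Hspb1 and Hspb8 were thus 2 of 41 members called in CA3, both higher, where 0.912% of all probes were called. The aged and adult arrays did not overlap for Hspb8 and for Dnajb6, against 2.44% of all probes. Intact minus adult gave the same 2 members, against 1.09% of all probes, and impaired minus adult 0, against 0.172%, with 4 at an unadjusted p under 0.05, against 7.98% of all probes. In CA1 0 of 40 members were called for aged against adult, with 3 at an unadjusted p under 0.05, against 0.0501% called and 6.07% unadjusted among all probes, and the groups overlapped for each member, against 1.02% of probes that did not overlap. Intact and impaired alone against adult also gave 0 there, against 0.0501% and 0.0301%, with 2 and 0 members at an unadjusted p under 0.05, against 4.97% and 2.16% of all probes. Without CA1 adult replicate 4 those were 12 and 4 members, against 24.4% and 8.29% of all probes. In the dentate gyrus 0 of 38 were called, with 1 at an unadjusted p under 0.05, against 0.0296% and 2.42%, and the groups overlapped for each member, against 0.276% of probes that did not. Each aged group alone gave 0 there too, against 0.0296%, with 2 members for intact and 0 for impaired at an unadjusted p under 0.05, against 3.14% and 1.95% of all probes.

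Outside CA3 Hspb8 was not called. In whole hippocampus its lowest, median and highest level was 7.23, 7.69 and 8.01 on impaired arrays, 7.31, 7.66 and 7.85 on intact arrays and 7.17, 7.41 and 7.62 on adult arrays. These groups overlap, and aged minus adult was 0.23 ± 0.07 (SE; limma adjusted p = 0.371). The adult level differed between the slides, at a mean of 7.22 on the first and 7.59 on the second. Its difference in the dentate gyrus was -0.11 ± 0.18 (SE).

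In CA1 Hspb8 was at 8.71, 8.80, 8.73 and 8.20 on the impaired arrays, at 8.80, 8.55, 8.96 and 8.75 on the intact arrays, and at 8.41, 7.43, 8.16 and 9.93 on the adult arrays. Adult replicate 4 was the highest array here, whereas it was the lowest for Hspb1. The difference of aged minus adult was 0.20 ± 0.36 (SE) with it and 0.69 ± 0.19 (SE; limma adjusted p = 0.169) without it.

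**Figure D2:**
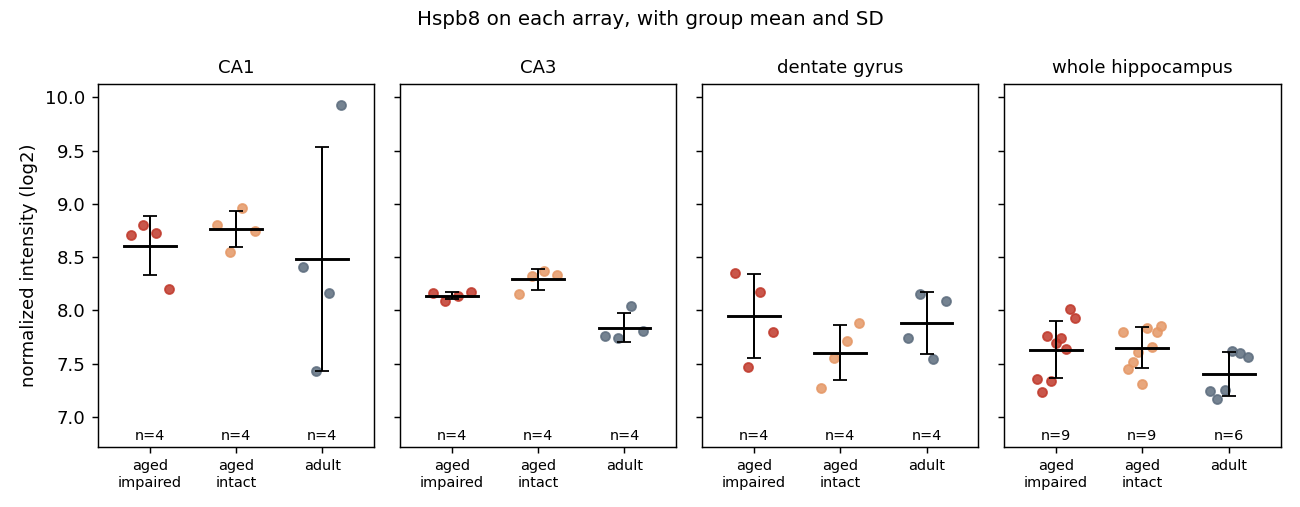
Normalized log2 intensity of Hspb8 on each of the 60 arrays (points), with group mean (thick line) and SD (bars), by group and region. In CA3 the adult arrays, at 7.74 to 8.04, lie below all aged arrays; in CA1 adult replicate 4 stands highest at 9.93.

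Hspb6 (Hsp20), known from muscle, was the remaining small heat shock protein that could be measured. Aged minus adult was -0.23 ± 0.25 in CA1, 0.02 ± 0.07 in CA3, 0.01 ± 0.13 in the dentate gyrus and -0.01 ± 0.07 in whole hippocampus (SE), none called; without adult replicate 4 the CA1 value turned to 0.11. Cryab, a crystallin of the same protein family that carries another name, showed 0.80 ± 0.36 in CA1, 0.33 ± 0.11 in CA3, 0.22 ± 0.13 in the dentate gyrus and 0.41 ± 0.10 in whole hippocampus (SE), none called; the lowest adjusted p was 0.0734, in whole hippocampus. Without adult replicate 4 the CA1 difference of Cryab was 0.31. Bag3, the partner of Hspb8, differed by 0.21 ± 0.07 in whole hippocampus (SE; limma adjusted p = 0.378). In CA3, where Hspb8 was called, Bag3 differed by 0.09 ± 0.10 (SE, limma adjusted p = 0.725). It differed by 0.10 ± 0.11 in the dentate gyrus and, with all arrays, by -0.10 ± 0.17 in CA1 (SE), none called.

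The Hsp70 family and its exchange factors had 0 members called with age in any region. Hspa5, the ER Hsp70, stayed within -0.03 and 0.10 in the 4 regions, the upper end being CA1, at -0.01 without adult replicate 4. Hspa9, the mitochondrial Hsp70, was at -0.46 ± 0.21 in CA1, -0.07 ± 0.08 in CA3, 0.14 ± 0.11 in the dentate gyrus and -0.13 ± 0.09 in whole hippocampus (SE), and the CA1 value was -0.18 without adult replicate 4. Hspa2, a cytosolic Hsp70 best known from testis, was at 0.83 ± 0.51 in CA1, where adult replicate 4 read 4.75 and the other 11 arrays read 7.74 to 8.14, and at 0.23 ± 0.09 in CA3 (SE). Without that array its CA1 difference was 0.03. Hspa4, Hspa12a and Hspa12b were measured in fewer regions, and their differences ran from -0.15 to 0.07.

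Hsp90aa1, the inducible cytosolic Hsp90, had the lowest age difference of the members in the dentate gyrus and in whole hippocampus. Its dentate gyrus level was 11.28, 10.61, 10.49 and 10.35 on the impaired arrays, 10.55, 10.85, 10.73 and 10.12 on the intact arrays, and 10.47, 10.76, 11.49 and 11.79 on the adult arrays. The groups overlap, and aged minus adult was -0.51 ± 0.25 (SE; limma adjusted p = 1.000). In whole hippocampus it was -0.19 ± 0.16, in CA3 -0.18 ± 0.12 and in CA1 0.57 ± 0.36 (SE), where adult replicate 4 was again the lowest array, at 8.76. Without that array the CA1 difference was 0.04.

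**Figure D3:**
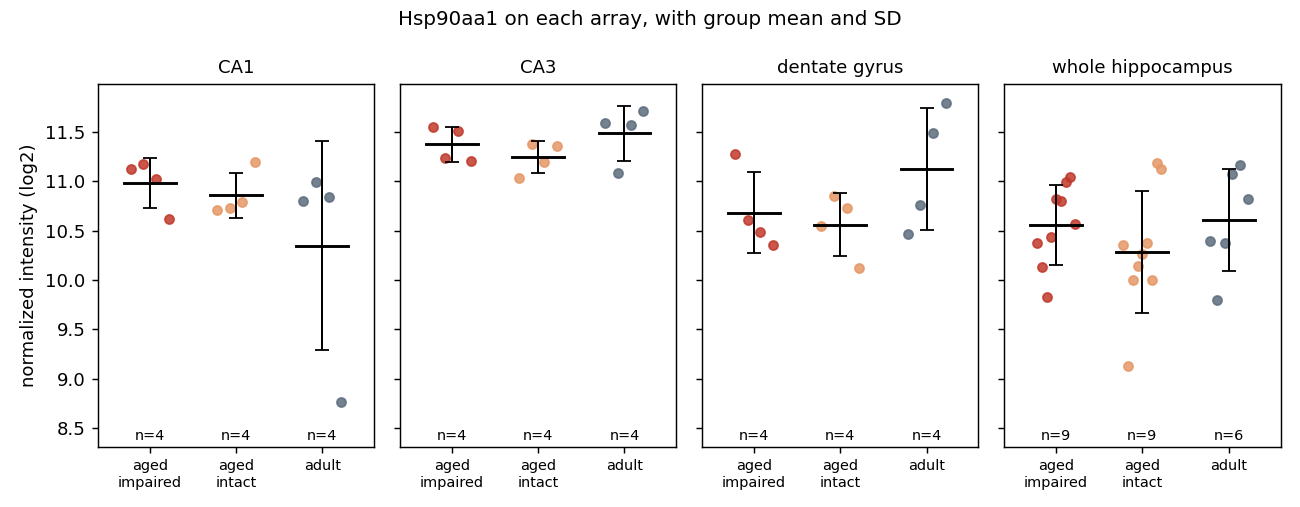
Normalized log2 intensity of Hsp90aa1 on each of the 60 arrays (points), with group mean (thick line) and SD (bars), by group and region. The groups overlap in every region; the adult arrays of the dentate gyrus run from 10.47 to 11.79 and CA1 adult replicate 4 lies at 8.76.

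The mitochondrial pair Hspd1 (Hsp60) and Hspe1 (Hsp10), which form 1 folding chamber, gave 0 calls. Hspd1 was at -0.19 ± 0.14 in CA1, -0.10 ± 0.07 in CA3, -0.04 ± 0.11 in the dentate gyrus and -0.09 ± 0.06 in whole hippocampus (SE). Hspe1 was at 0.41 ± 0.36, -0.01 ± 0.07, 0.03 ± 0.11 and 0.03 ± 0.07 in the same regions (SE). Without adult replicate 4 the CA1 values were -0.07 for Hspd1 and -0.13 for Hspe1, whose direction turned.

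None of the J proteins was called with age. In CA3 the lowest were the ER residents Dnajb9 and Dnajc10, which serve Hspa5 and disulfide reduction. Dnajb9 was at 8.85, 9.06, 8.92 and 8.94 on impaired arrays, at 8.59, 8.77, 8.79 and 9.07 on intact arrays, and at 9.36, 8.91, 9.19 and 9.25 on adult arrays, with a difference of -0.31 ± 0.10 (SE; limma adjusted p = 0.183). Dnajc10 was at 10.75, 10.91, 10.73 and 10.98 on impaired arrays, at 10.70, 10.80, 10.80 and 10.89 on intact arrays, and at 11.09, 10.97, 11.09 and 11.22 on adult arrays, with a difference of -0.27 ± 0.07 (SE; limma adjusted p = 0.11). For both the groups overlapped, for Dnajc10 by the step between 10.98 and 10.97 only. The cytosolic Dnajb4 came next in CA3 at -0.20.

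Dnajb6, which holds back the clumping of polyglutamine proteins, was at 9.91, 9.83, 9.99 and 9.92 on impaired arrays of CA3, at 9.96, 9.97, 10.02 and 9.86 on intact arrays, and at 9.55, 9.78, 9.79 and 9.76 on adult arrays. These groups did not overlap, but the difference of 0.21 ± 0.07 (SE; limma adjusted p = 0.172) was not called. In the other regions it was -0.19 ± 0.23 (CA1), 0.11 ± 0.15 (dentate gyrus) and 0.07 ± 0.07 (whole hippocampus; SE), and the CA1 value turned to 0.09 without adult replicate 4. Hspbap1, taken in by prefix, came next after Hspb1 and Hspb8 in CA3 at 0.31 and in whole hippocampus at 0.18.

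Over CA3, the dentate gyrus and whole hippocampus Dnaja1 ranged from -0.09 to 0.08, Dnajb1, a heat-inducible partner of Hsp70, from -0.03 to 0.02, and Dnajb5 from -0.10 to 0.03. Dnajc3, an ER protein that holds back a stress kinase, ranged from -0.03 to 0.09. Dnajc5, which guards synaptic vesicle proteins, ranged from -0.15 to 0.04, and Dnajc6, the auxilin that strips clathrin from vesicles, from -0.16 to 0.03. In CA1 these differences moved with adult replicate 4. With and without it they were 0.15 and -0.04 for Dnaja1, -0.33 and -0.09 for Dnajb1, and 0.24 and -0.18 for Dnajb5. They were likewise -0.32 and 0.04 for Dnajc3, 0.36 and -0.23 for Dnajc5, and -0.06 and 0.20 for Dnajc6, so that for 5 of these 6 the direction turned. In the dentate gyrus Dnajc1 (-0.31) and Dnajc17 (-0.19) were lowest after Hsp90aa1, and Dnajb4 (0.19), Dnaja4 (0.15) and Dnajc13 (0.14) highest. Without dentate gyrus adult replicate 4 Dnajb4 was at 0.04 and Dnaja4 turned to -0.09, and without adult replicate 3 Dnajc13 turned to -0.03. In CA1 Dnajc17 (0.81) stood high and Dnajc18 (-0.33) low, which without CA1 adult replicate 4 were at 0.14 and 0.22.

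CA1 adult replicate 4 was below the other 11 CA1 arrays for 21 of the 40 members and above them for 18. Without it 21 of the 40 age differences changed sign, and 10 members had an unadjusted p under 0.05 in limma, with 0 called. The lowest were then Dnajb9 at -0.60 and Dnajb4 at -0.55, and the highest Hspb8 at 0.69, Hspb1 at 0.47 and Dnajc2 at 0.39. The share of all probes with an unadjusted p under 0.05 was 6.07% with it and 20.2% without it.

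The members' median difference of aged minus adult was -0.03 in CA1, 0.01 in CA3, 0.04 in the dentate gyrus and -0.02 in whole hippocampus, where the medians of all probes tested were 0.06, 0.00, 0.02 and -0.01. In CA3 23 of 41 members lay above 0 (50.6% of all probes did), and in whole hippocampus 16 of 40 (47.5% of all probes). Without Hspb1, the members of whole hippocampus spanned -0.19 to 0.23 and those of CA3 -0.31 to 0.38.

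**Figure D4:**
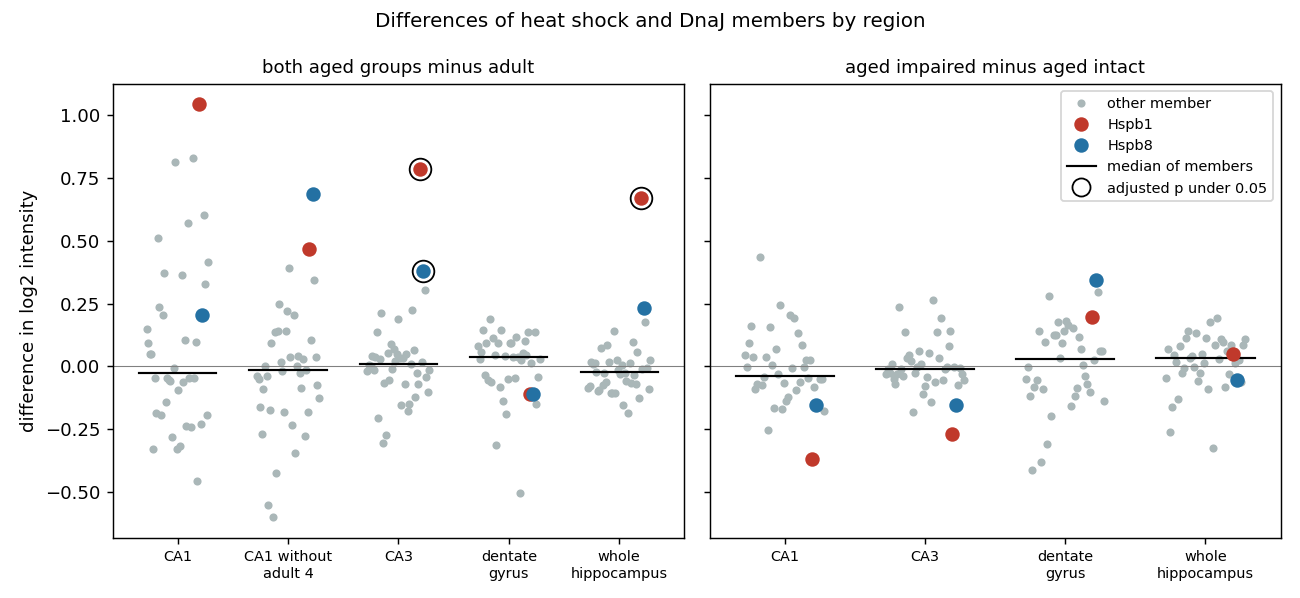
Difference in log2 intensity of each tested member (points), for both aged groups minus adult (left) and aged impaired minus aged intact (right), by region, with CA1 also drawn without adult replicate 4 on the left; the line is the median of the members and rings mark an adjusted p under 0.05. Hspb1 is ringed in CA3 (0.79) and whole hippocampus (0.67) and Hspb8 in CA3 (0.38), and the right panel has no ring.

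Impaired and intact aged rats were compared to ask whether the members go with the impairment rather than with age. No member was called in any of the 4 regions, and 0.0% of all probes were. Members with an unadjusted p under 0.05 in limma numbered 0 of 40 in CA1, 1 of 41 in CA3, 0 of 38 in the dentate gyrus and 4 of 40 in whole hippocampus, against 0.331%, 5.06%, 1.93% and 5.79% of all probes. In the fit without CA1 adult replicate 4 the CA1 count was 2, against 5.79% of all probes. Hspb1 itself differed by -0.37 ± 0.45 in CA1, -0.27 ± 0.19 in CA3, 0.20 ± 0.19 in the dentate gyrus and 0.05 ± 0.10 in whole hippocampus (SE). The groups of a region share a spread in the fit, so the CA1 SE also holds that of adult replicate 4. With each CA1 array left out in turn, that one among them, the lowest limma adjusted p for Hspb1 was 0.841.

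The members furthest from 0 in this comparison differed between regions. In whole hippocampus the mitochondrial Dnaja3 was between 7.25 and 7.72 on impaired arrays and between 7.51 and 8.32 on intact arrays, a difference of -0.26 ± 0.09 (SE; limma adjusted p = 0.639). Dnajc7 (-0.32) and Dnaja4 (-0.16) were the others on the low side, and Hsp90aa1 (0.19), Dnajc6 (0.18) and Dnajc10 (0.14) stood on the high side. Dnajc7, a J protein that links Hsp70 to Hsp90, was on the high side in CA3, at 0.27, with Dnajb4 (0.24) and the ribosome-bound Hspa14 (0.19). Dnajc13, an endosomal J protein, was lowest there after Hspb1, at -0.18, followed by Hspb8 at -0.16.

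The low side held, in the dentate gyrus, Dnaja4 (-0.41), Dnajb4 (-0.38) and Dnajb9 (-0.31), and the high side Hspb8 (0.35), Hspbap1 (0.30) and Dnajc1 (0.28). In CA1 Dnajb4 (0.44) and Dnajc5 (0.20) stood high; Dnajc16, which ranked between them, was detected on 1 of the 4 impaired and 0 of the 4 intact arrays there, so its difference is not given. On the other side Dnajc1 (-0.25) and Hspe1 (-0.18) were lowest after Hspb1. All of these failed the adjusted test.

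Levels of 20 of the 42 members (47.6%) differed between CA1, CA3 and the dentate gyrus by limma's F test, against 57.7% of all probes. Without CA1 adult replicate 4 the count was 24. The share of all probes in that fit is not given here, so the 24 cannot be set against 57.7%. Of the 20, 10 were highest in CA3, 7 in CA1 and 3 in the dentate gyrus. Dnajc16, among those highest in CA3, was detected on 10 CA3, 4 CA1 and 2 dentate gyrus arrays, so its lower levels lie near the detection limit. A probe entered this F test when it was tested in any of the subregions. Hspa12b, among the 20, entered through CA1 alone, with detection on 7 CA1, 2 CA3 and 0 dentate gyrus arrays. Hspa4, among the 24, entered through CA3 alone, with 4 CA3, 1 CA1 and 3 dentate gyrus arrays. Each was highest where it entered, so the test cannot show a subregion difference for them. Subregion and slide cannot be told apart here.

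Hspb1 had the smallest p of the members between subregions. Its mean over 12 arrays was 7.95 in CA1, 8.39 in CA3 and 6.95 in the dentate gyrus. The dentate gyrus was below CA3 by a difference of -1.44 ± 0.19 (SE; adjusted p = 1.69e-07 in limma) and below CA1 by -0.998 ± 0.187 (SE; adjusted p = 5.9e-05 in limma), or -1.19 without CA1 adult replicate 4. CA3 and CA1, neighbours in that order, differed by 0.45 ± 0.19 (SE; limma adjusted p = 0.0693), which was not called. Without CA1 adult replicate 4 that difference was 0.25 (limma adjusted p = 0.0755). Whole hippocampus, on slides of its own, lay between the dentate gyrus and CA3 in each group, at means of 7.95 ± 0.20 for impaired (SD, n = 9), 7.89 ± 0.31 for intact (SD, n = 9) and 7.25 ± 0.09 for adult rats (SD, n = 6).

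Dnaja4, which serves Hsp70 in the cytosol, was higher in CA3 than in CA1 by 0.86 ± 0.13 (SE), or 0.75 without CA1 adult replicate 4. Dnajc6 was higher in CA3 than in CA1 by 0.70 ± 0.12 (SE), or 0.79 without that array, and lower in the dentate gyrus than in CA3, at -0.59. Hsp90aa1 was likewise higher in CA3 than in CA1, by 0.64 ± 0.19 (SE), or 0.46 without that array. Hspb8 ran the other way: CA3 minus CA1 was -0.53 ± 0.16 (SE) and dentate gyrus minus CA1 was -0.81 ± 0.16 (SE), or -0.37 and -0.65 without that array. Dnajb1 was lower in the dentate gyrus than in CA1, at -0.45, and Hspa12b at -0.58, though Hspa12b was detected on 0 of the 12 dentate gyrus arrays and so has no more than an upper bound there.

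**Figure D5:**
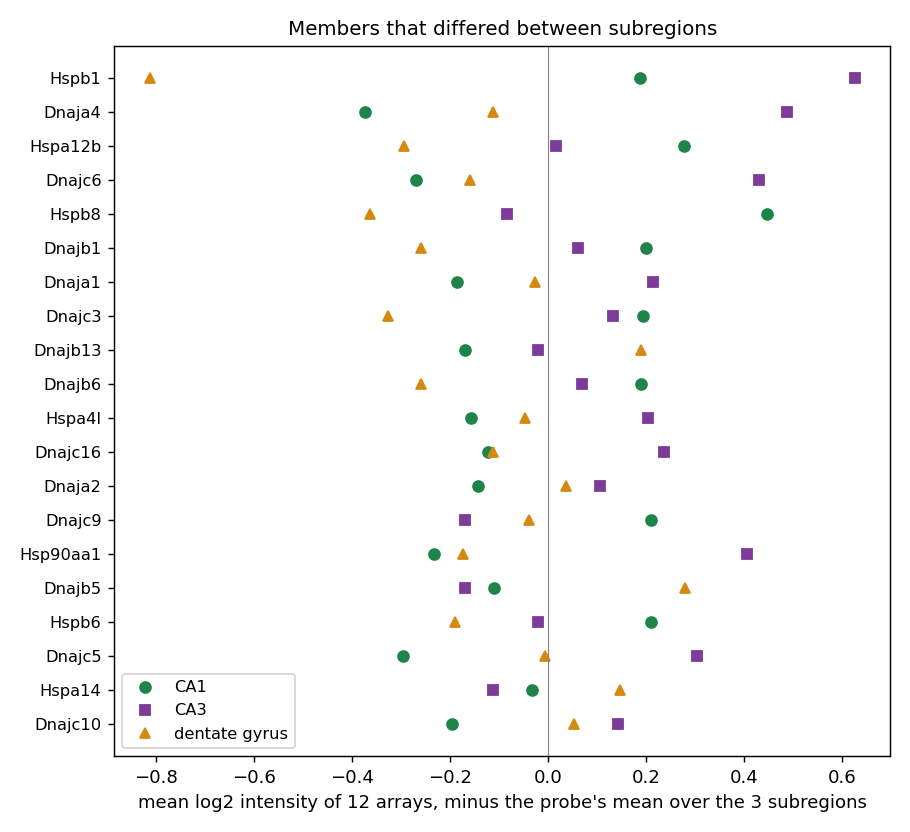
Mean log2 intensity of 12 arrays per subregion for each of the 20 members called by the F test, minus that probe's mean over the 3 subregions, with the smallest p at the top. Hspb1 spreads widest, with the dentate gyrus lowest and CA3 highest (6.95 and 8.39 as levels).

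Other genes of protein folding were followed on 6 lists: Hsf1 and stress regulators, cochaperones of Hsp70 and Hsp90, crystallins, the chaperonin TRiC with prefoldin, ER folding with the unfolded protein response, and mitochondrial protein folding. Outside the members 63 probes of their genes were tested in each region. For aged against adult 0 of 63 were called in any region by limma, with 5, 9, 1 and 5 at an unadjusted p under 0.05 in CA1, CA3, the dentate gyrus and whole hippocampus, against 6.07%, 13.8%, 2.42% and 5.66% of all probes. The median age difference of the ER list was 0.09 in CA3 and 0.05 in whole hippocampus, and that of the cochaperones 0.03 and -0.02. Impaired minus intact also gave 0 calls in each region, with 0, 4, 0 and 2 at an unadjusted p under 0.05, against 0.331%, 5.06%, 1.93% and 5.79% of all probes. Of 16 immediate early genes, which respond to handling and activity, between 10 and 12 were tested and 0 were called with age in any region.

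Markers of glia were called with age in CA3 and whole hippocampus, where Hspb1 was called, and Serping1 and Cd74 also in CA1, where it was not. Gfap, the filament of astrocytes, differed by 0.68 ± 0.08 in CA3 (SE, adjusted p = 0.000584 in limma). In whole hippocampus it differed by 0.45 ± 0.08 (SE, adjusted p = 0.00421 in limma). With all arrays its difference was largest in CA1, at 0.80 ± 0.25 (SE, adjusted p = 0.630 in limma), but was not called there. In the dentate gyrus it was 0.19 ± 0.12 (SE), also not called. On the list of 12 astrocyte genes that holds Gfap the other genes were not called. In CA3 9 of the 12, Gfap among them, were tested, with 4 above 0 and a median of -0.03. Their summed intensity was 46872 to 47770 on impaired, 47005 to 48874 on intact and 41181 to 45740 on adult arrays. Gfap is part of these sums and of those of the reactivity list below. In whole hippocampus 10 were tested, with 6 above 0 and a median of 0.02, and the sums were 46610 to 53994 on impaired, 46503 to 55828 on intact and 46152 to 47771 on adult arrays. On a list of 18 astrocyte reactivity genes 8 were tested in CA3, with Gfap and Serping1 called higher; the summed intensity was 12883 to 14751 on impaired, 13852 to 15758 on intact and 8315 to 10119 on adult arrays. In whole hippocampus 9 were tested, with the same genes called, and the sums were 11611 to 16596, 12558 to 16529 and 9522 to 11805 in that order of groups.

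Of 14 microglial genes 11 were tested in CA3 and 8 called higher, among them C1qa, Cd68 and Trem2; the sums were 6608 to 7193 on impaired, 7201 to 7935 on intact and 4986 to 5425 on adult arrays. In whole hippocampus Cd74 and Trem2 were called of 11 tested, and the sums ran from 4913 to 12739 on impaired, 4793 to 6023 on intact and 3991 to 4823 on adult arrays. In CA1 Cd74 alone was called of 12 microglial genes, with 11 above 0 and a median of 0.50, or 0.42 without adult replicate 4. Of 8 astrocyte reactivity genes there Serping1 alone was called, with 7 above 0 and a median of 0.44, or 0.47 without that array. In the dentate gyrus 0 of 10 microglial and 0 of 7 astrocyte reactivity genes were called. The lists of oligodendrocyte, endothelial, vascular smooth muscle, choroid plexus and blood genes had 0 calls in any region. Ogn of the meningeal list was called higher in CA3, Igf2 of that list lower in whole hippocampus, and the neuronal Syn1 lower in CA3. The part of these cells in the Hspb1 and Hspb8 results was not tested.

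The genes most like Hspb1 were sought by Pearson correlation over the 60 arrays, after subtracting the mean of each region and group, among 10671 genes. The 10 highest were Bcl7c, Ppp1r36, Faim, LOC367398, Snrpd2, Trmt112, Ass1, Sra1, Katna1 and Zfp277, with r between 0.784 and 0.803. These values rest on CA1 adult replicate 4: without it the same genes had r between 0.394 and 0.509. Over the remaining 59 arrays the highest were Ecrg4 (0.692), S100a6 (0.646) and Ifitm3 (0.623). The arrays share slides and overall intensity, so r is given as a description.

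The members most like Hspb1 over 60 arrays were Hspa2 (r = 0.737), Hspe1 (0.71), Dnajc17 (0.689), Dnajb9 (0.624) and Hsp90aa1 (0.623). Without CA1 adult replicate 4 these fell to 0.165, 0.15, 0.123, 0.026 and 0.401. Hspb8 had r = -0.303 with that array and 0.442 without it, the highest of the members over 59 arrays. Gfap had r = 0.539 over 60 arrays and -0.03 over 59.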

How the data were processed

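Hippocampal RNA was hybridised to 5 Illumina slides of 12 arrays. The deposited tables hold, per the file headers, the intensity of each of 22523 probes with its detection p-value, array by array, and a second table of processed intensity values with some below 0, whose background handling is not given in the sources used here. RNA was extracted with Trizol and labelled with biotin, per the labels' protocols. Arrays limit the precision by their number: 4 to 9 per group.

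From the deposited intensity values, levels were computed with neqc of limma 3.58.1 in R 4.3.3 on all 60 arrays (offset 16, with the negative controls worked out from those p-values), which corrects background, quantile-normalizes and takes log2. Each region was fitted with 3 groups, adding the slide for whole hippocampus; aged is the mean of intact and impaired. The 36 subregion arrays were also fitted in 1 model of 9 groups. The threshold was an adjusted p of 0.05. Old symbols were updated through RefSeq's gene table; 5527 probes kept the symbol of the file. The code was tested on simulated data.

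The members and gene lists were chosen with earlier results of these data known. Named are Hspb1, every member called, the 3 highest and 3 lowest per region and comparison, the 6 smallest F test p-values, and a fixed set of chaperones. Alternatives tried were the background correction, the processed values, normalization per region, the detection filter, the probe per gene, array weights, slide terms, a replicate block, 1 fit of all arrays, and leaving out each array.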

Additional observations from a re-analysis of the deposited data

Results flagged for a closer look

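Single arrays stood apart from the others of their group (Dixon's test) in 10 of the 72 sets of arrays checked, over 12 groups and the 6 members Hspb1, Hspb8, Hspa2, Hsp90aa1, Dnaja4 and Dnajc6; chance flags about 1 in 20. In CA1 they were adult replicate 4 for Hspa2 (4.75) and Hsp90aa1 (8.76), intact replicate 4 for Hsp90aa1 (11.2) and impaired replicate 4 for Hspb8 (8.2). Elsewhere they were impaired replicate 2 for Hspb1 in the dentate gyrus (6.7), adult replicate 3 for Hspb1 in whole hippocampus (7.07), intact replicate 7 for Hspa2 in whole hippocampus (7.67), and for Dnajc6 impaired replicate 1 in CA3 (9.07), intact replicate 1 in the dentate gyrus (8.35) and adult replicate 6 in whole hippocampus (8.43). All are log2 levels.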

How the results depend on the processing

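Under every alternative run, all differences called with all arrays kept their direction. The Hspb1 difference of aged minus adult in CA3 missed the threshold with the processed values (0.86, limma adjusted p = 0.0607), no detection filter (0.79, 0.115), array weights (0.69, 0.0821) and 1 fit of all 60 arrays (0.79, 0.481), and sat at an adjusted p of 0.0499 with the region normalized alone. In whole hippocampus it missed it within slide 1 (0.67, 0.376), within slide 2 (0.68, 0.336) and in 1 fit (0.67, 0.179). In CA1 it was 0.33 (adjusted p = 0.228) with array weights and passed in 1 fit (1.04, 0.0047), which pools the spread of regions and has CA1 adult replicate 4 in it. Hspb1 impaired minus intact in whole hippocampus was -0.079 with array weights. In that comparison and setting Hsp90aa1 turned to -0.011, Dnajc6 fell to 0.023 and Dnajc7 came to -0.164.

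Called members in CA3 fell to 1 with the processed values, no filter and array weights, for aged and for intact against adult, and to 0 in 1 fit. In whole hippocampus they fell to 0 within either slide and in 1 fit, for aged, intact and impaired against adult. In CA1 1 fit called 7 for aged and 5 for intact against adult, and array weights called 1 for intact against adult. The share of all probes called under these settings is not given here, so these counts are not read as results about the members.

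With each array left out in turn, members called for aged and for intact against adult ranged from 0 to 2 in CA3. They stayed at 1 in whole hippocampus, as did impaired against adult there. All other counts of called members stayed at 0. Members differing between subregions ranged from 19 to 24, and the share of all probes in these fits is not given here. Hspb1 aged minus adult ranged from 0.468 to 1.322 in CA1, 0.675 to 0.946 in CA3, -0.27 to 0.066 in the dentate gyrus and 0.643 to 0.704 in whole hippocampus; impaired minus intact ranged from -0.478 to -0.277, -0.434 to -0.145, 0.133 to 0.299 and -0.01 to 0.106 in the same regions.

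The labels do not say whether replicate numbers pair the samples or whether regions share animals. Same-numbered samples of different subregions had a median correlation of 0.115 in their deviations, and 20 of 36 pairs exceeded 0.1. For differently numbered samples the median was -0.018, and 35 of 108 pairs exceeded 0.1. The model of 36 subregion arrays takes them as independent, and shared animals were not tested. With the number as a block Hspb1 aged minus adult was 0.79 (limma adjusted p = 0.0441) in CA3 and 0.68 (0.00886) in whole hippocampus. Called members were 2 and 1 there, and 20 members differed between subregions. That block joins same-numbered samples of adult and aged groups alike, so it does not stand for animals shared between regions. Taking every probe of a gene gives Hspb1 no other value, since it has 1 probe, and with probes detected on every array Hspb1 drops out of CA1. The correlations without CA1 adult replicate 4 were an alternative chosen after seeing the data.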
